A study of Mus musculus with 65 samples.

Results

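*Olig1*, *Olig2* and *Olig3* encode the 3 members of the oligodendrocyte transcription factor family, and their levels were followed over 65 libraries in 25 groups of cell type, day and treatment. The members were taken by name as 3 of the 25239 genes measured, by a rule that uses no measured value. OLIG proteins are basic helix-loop-helix (bHLH) transcription factors that bind DNA as dimers and act mainly as repressors. In the ventral spinal cord Sonic hedgehog (Shh) signalling induces *Olig2* and *Olig1* in the pMN domain, whose progenitors give rise to motor neurons and later to oligodendrocytes. OLIG2 and NKX2.2, the factor of the neighbouring p3 domain, are mutually repressive, and *Olig3* marks progenitors of the dorsal spinal cord.

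All libraries came from HM1, 1 mouse embryonic stem cell line differentiated in culture with bFGF and the Wnt secretion inhibitor LGK, then with bFGF, CHIR, SB and DMH1 to day 3. Neuromesodermal progenitors (NMP) were collected on day 3 before any hedgehog agonist was given (0 nM, 3 libraries). From day 3 all other cultures received 100 nM retinoic acid (RA) together with the smoothened agonist SAG at 0, 10, 100 or 500 nM, and cells were fixed, stained for intracellular transcription factors and sorted on days 4, 5 and 6. The p0-1 cells came from 0 and 10 nM SAG (17 libraries), p2 cells from 10 and 100 nM (15 libraries), and pMN and p3 cells each from 100 and 500 nM (15 libraries each), with 1 to 3 libraries per group. Replicates carry separate numbers, and since the sources used here state independent differentiations only for other assays of the study, p-values measure the spread between these libraries. The gates used SOX2 with PAX6, NKX6.1, OLIG2 and NKX2.2 proteins, with p3 sorted as OLIG2-negative and pMN as OLIG2-positive, so *Olig2* RNA was not independent of the sort while *Olig1* and *Olig3* were not sorting markers. In these bulk samples fewer cells with a transcript cannot be told apart from less of that transcript per cell.

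Values are reads per gene scaled by 1 size factor per library (normalised reads), with 1 read worth 0.717 to 1.36 normalised reads, 7615114 to 13484815 reads per library and 9718 to 15963 genes detected. RNA was limiting and of low quality after fixation, and the libraries carried no molecular identifiers, so reads were not independent molecules and a value of 0 allows up to 3 reads for counting error alone. On days 5 and 6 some summed markers followed the labels and others did not. *Nkx2-2* and *Nkx2-9* summed to 741 to 2685 normalised reads in p3 against 0 to 99.4 in p2. The NMP markers summed to 3168 to 7002 in NMP against at most 262 elsewhere. The separation of pMN was partial, since the same p3 markers summed to between 0 and 1281 in pMN. *Olig2* and *Olig1* summed to at least 1404 in pMN but reached 1802 in p2 and 2168 in p3. The p2 markers (*Nkx6-1*, *Pax6*, *Irx3*) did not separate p2 (3806 to 8070) from p0-1 (4132 to 8046). The p0-1 markers (*Pax6*, *Dbx1*, *Dbx2*) overlapped between p0-1 (3140 to 8155) and p2 (1847 to 5806). Floor plate markers were higher in p3 (344 to 12000) than in p2 (36.3 to 812), and pan-neuronal markers were present in every neural library.

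*Olig2* lies on chromosome 16 of mm10 at chr16:91225550-91228677 on the forward strand, with 2 exons and its 969 coding bases in exon 2. *Olig1* follows on the same strand at chr16:91269769-91271939, a single exon with 780 coding bases that begins 41.1 kb after the end of *Olig2*. *Olig3* is a single-exon gene on chromosome 10 at chr10:19356539-19358604 with 819 coding bases. No other annotated gene overlapped either locus. The stretch of 30 codons in which the 3 coding sequences were most alike is shown because near-identical sequence could let reads be assigned to the wrong member. It covers the second helix of the bHLH domain, and capitals mark bases shared by all 3 members (GENCODE transcripts, forward strand, mm10: chr16:91270264-91270353 for *Olig1*, chr16:91226814-91226903 for *Olig2* and chr10:19356971-19357060 for *Olig3*).
Olig1: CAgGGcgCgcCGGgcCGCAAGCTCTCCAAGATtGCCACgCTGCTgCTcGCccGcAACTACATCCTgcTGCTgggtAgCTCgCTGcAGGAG
Olig2: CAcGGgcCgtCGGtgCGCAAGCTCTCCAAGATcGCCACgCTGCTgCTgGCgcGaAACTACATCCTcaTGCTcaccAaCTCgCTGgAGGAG
Olig3: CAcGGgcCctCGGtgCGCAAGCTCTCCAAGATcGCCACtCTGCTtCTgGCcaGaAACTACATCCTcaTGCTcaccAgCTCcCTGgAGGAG
Of these 90 bases 67 (74.4%) were identical in all 3 genes. *Olig2* and *Olig3* shared 83, *Olig1* and *Olig2* 72, and *Olig1* and *Olig3* 69. Over whole transcripts the longest identical run was 29 bases between *Olig2* and *Olig3* and 17 bases between *Olig1* and either of them, so the members could be told apart outside short runs.

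The promoters of *Olig2* and *Olig3* are shown for the contrast between a gene read in 46 libraries and one read in 7 (RefSeq, GRCm38.p6, 250 bases before the start, forward strand, chr16:91225300-91225549 and chr10:19356289-19356538). Capitals mark the E-box CANNTG, the letters that bHLH dimers recognise.
Olig2: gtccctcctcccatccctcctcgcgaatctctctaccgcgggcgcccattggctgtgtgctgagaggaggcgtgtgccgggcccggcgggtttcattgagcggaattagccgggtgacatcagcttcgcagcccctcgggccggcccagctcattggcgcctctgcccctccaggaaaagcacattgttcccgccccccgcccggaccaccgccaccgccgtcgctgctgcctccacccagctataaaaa
Olig3: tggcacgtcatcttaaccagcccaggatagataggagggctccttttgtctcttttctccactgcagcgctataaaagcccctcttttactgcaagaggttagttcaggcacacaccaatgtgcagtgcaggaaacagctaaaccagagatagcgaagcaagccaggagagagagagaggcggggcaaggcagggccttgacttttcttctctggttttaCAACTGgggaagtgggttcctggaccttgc
The *Olig2* stretch held 66.8% G or C and no E-box, and the *Olig3* stretch 51.6% G or C and 1 E-box, which starts 30 bases before the gene. An E-box was present in 66.2% of the 32817 RefSeq promoters of this length. The letters TATAAA, the TATA box, were found once in each gene, 8 bases before the start of *Olig2* and 180 before *Olig3*, and in 12.4% of all promoters on either strand. The GLI motif GACCACCCA, the site of the Shh effectors, was in neither stretch on either strand and in 0.225% of promoters. These are matches of letters only.

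The first question was how the family members divided between the domains. *Olig2* and *Olig1* were highest in pMN, intermediate in p3 and p2, and at or near 0 in p0-1 and NMP, while *Olig3* was read in 7 scattered libraries. Over days 5 and 6 *Olig2* had a mean of 3574 ± 1322 normalised reads in pMN (SD, n = 11), 823 ± 489 in p3 (n = 11), 423 ± 516 in p2 (n = 12) and 8.63 ± 29.6 in p0-1 (n = 12). *Olig1* followed the same order with 523 ± 341 in pMN, 143 ± 167 in p3 and 70.6 ± 108.5 in p2, and no read in any of the 12 p0-1 libraries. Per kilobase of exon, where the members can be compared, *Olig2* stood at 1467 ± 543 in pMN and *Olig1* at 241 ± 157.

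**Figure D1:**
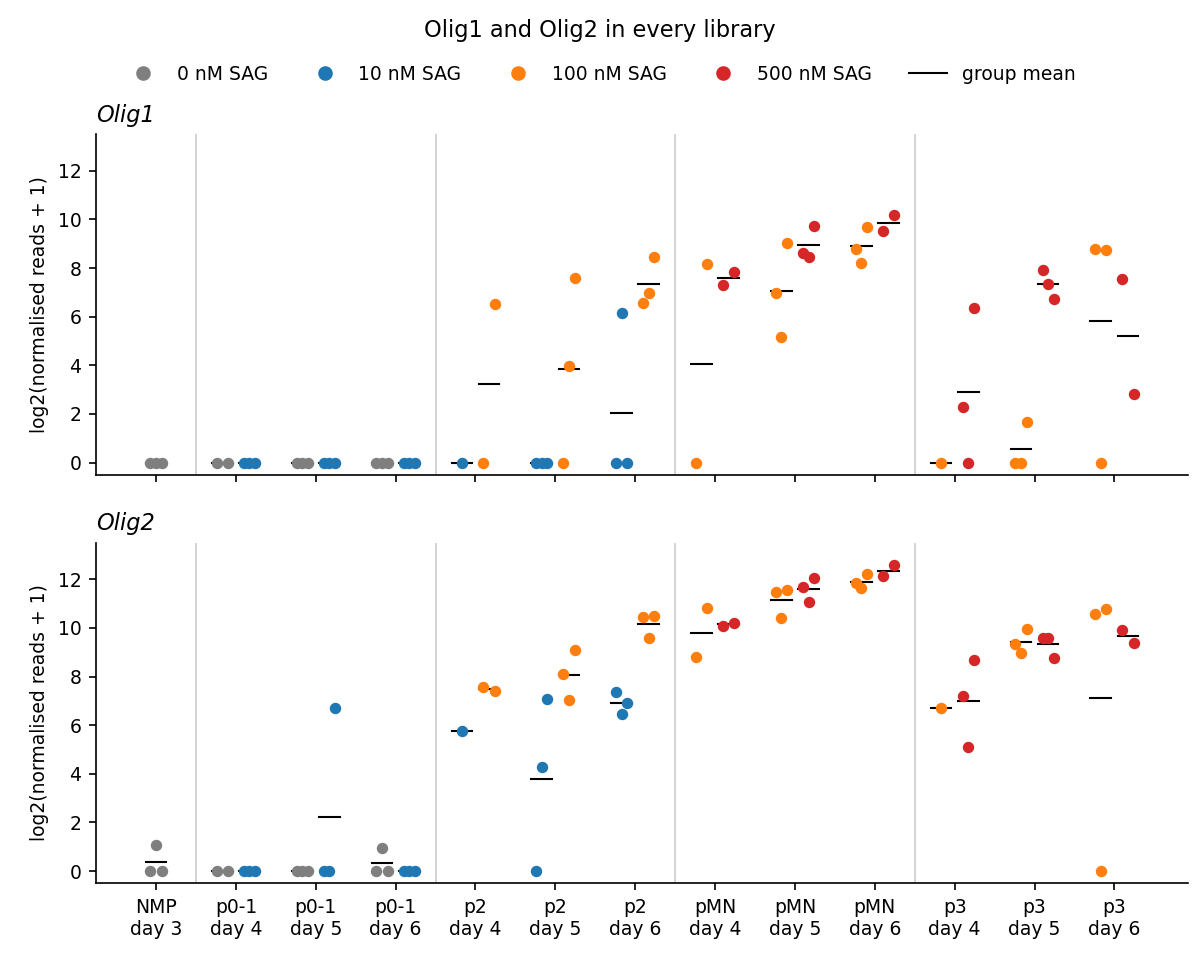
Level of *Olig1* (top) and *Olig2* (bottom) as log2(normalised reads + 1) in each of the 65 libraries, by cell type and day on the horizontal axis. Points are libraries coloured by SAG concentration and black lines are group means of the log2 values. Every pMN library of days 5 and 6 has both genes, and *Olig1* is at 0 in all NMP and p0-1 libraries.

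In pMN, where OLIG2 has its known role, every library held *Olig2*. On day 4 the normalised reads were 447 and 1801 at 100 nM SAG and 1078 and 1187 at 500 nM. On day 5 the values were 2851, 1368 and 3025 at 100 nM and 3295, 2172 and 4266 at 500 nM. On day 6 they reached 3725, 3205 and 4753 at 100 nM, and 4442 and 6214 at 500 nM. At each concentration every day 6 library thus stood above every day 5 library, and on day 4 only the 100 nM replicate 3 library reached above the lowest day 5 library.

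*Olig1* had its highest values in the same cells. On day 4 it had 0 and 283 normalised reads at 100 nM and 157 and 228 at 500 nM. On day 5 the values ran from 35.4 to 525.9 at 100 nM (middle value 123.5) and from 354 to 843 at 500 nM (middle value 388.5). On day 6 they were 440, 297 and 833 at 100 nM, and 747 and 1167 at 500 nM. The days overlapped for *Olig1*, and the library with no read on day 4, 100 nM replicate 2, was also the lowest pMN library of all for *Olig2*. Replicate 3 was the highest library in 6 of 6 pMN groups for both genes, in 3 of 4 p2 groups with any *Olig1* read and in 2 of 5 such p3 groups. Whether a replicate number marks a shared differentiation is not given in the sources used here.

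The p3 cells, sorted as lacking OLIG2 protein, still had *Olig2* reads in 14 of 15 libraries. On day 4 *Olig2* was at 103 normalised reads at 100 nM and at 146, 33.7 and 415 at 500 nM. On day 5 it was at 650, 502 and 1004 at 100 nM and at 775, 769 and 435 at 500 nM. On day 6 it was at 1532, 0 and 1741 at 100 nM and at 974.6 and 673 at 500 nM. The exception was the p3 library of 100 nM day 6 replicate 2, with no read of *Olig1* or *Olig2* among 10487042 reads. It had 214 normalised reads of *Nkx2-2* and 811 of *Nkx2-9*. With 10338 genes detected it was near the low end of all libraries (9718 to 15963), and the part of this was not tested. *Olig1* in p3 split by library. It was at 3.90 or less in 3 of 4 libraries of day 4 and at 81.6 in the other. It was at 0, 0 and 2.19 on day 5 at 100 nM, and at 245, 163 and 107 on day 5 at 500 nM. On day 6 it was at 434, 0 and 427 at 100 nM and at 189 and 6.15 at 500 nM.

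In p2 cells, the next domain dorsal to pMN, the highest values of both genes came from 100 nM SAG. At 10 nM SAG *Olig2* was at 52.6 normalised reads on day 4, at 0, 18.3 and 134 on day 5, and at 162, 87.1 and 118 on day 6. At 100 nM it was at 188 and 168 on day 4, at 271, 130 and 549 on day 5, and at 1385, 770 and 1452 on day 6. The 3 day 6 libraries of 100 nM thus stood above every p2 library of 10 nM. *Olig1* was read in 1 of the 7 p2 libraries of 10 nM SAG, at 70.8 on day 6, and in 6 of the 8 of 100 nM, where it reached 350.

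The p0-1 and NMP libraries were the floor. *Olig1* was at 0 in all 17 p0-1 and 3 NMP libraries. *Olig2* was at 102.6 normalised reads in p0-1 of 10 nM SAG, day 5 replicate 3, at 0.919 in p0-1 of 0 nM, day 6 replicate 2, at 1.13 in 1 NMP library, and at 0 in the rest. The neighbours pMN and p3 in this order did not overlap in *Olig2* at a given concentration and day, p3 and p2 overlapped on days 5 and 6 at the shared 100 nM, and p2 of 10 nM overlapped with p0-1 on day 5.

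These orders were tested with limma across 13964 genes with a mean of at least 10 normalised reads, on log2(value + 1) with 1 mean per group. Calls required both an adjusted p (Benjamini-Hochberg over these genes) under 0.01 and more than a 2-fold difference. *Olig3*, with a mean of 5.22, was below the filter and was tested apart, so the calls concern 2 of the 3 members. Both tested members were called higher in pMN than in p0-1, against 0.96% of all genes called in that comparison. These types shared no SAG concentration, so domain and concentration cannot be told apart in it. The log2 difference was 11.12 for *Olig2* (SE 0.81, adjusted p 2.1e-14 from limma), the largest rise among 90 genes called higher. For *Olig1* it was 8.69 (SE 0.97, limma adjusted p 8.26e-09), the 4th largest. The pMN gate required OLIG2 protein, so the *Olig2* differences of pMN, here and below, were not independent of the sort. No pMN library of days 5 and 6 overlapped with a p0-1 library for either gene. Throughout, non-overlap is a description of the members alone, given without the share of all genes that do not overlap. With 3 reads per library as the floor for counting error alone, mean *Olig1* in pMN was 179-fold the floor of p0-1. Loss of transcripts in low-quality RNA is not covered by this floor.

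**Figure D2:**
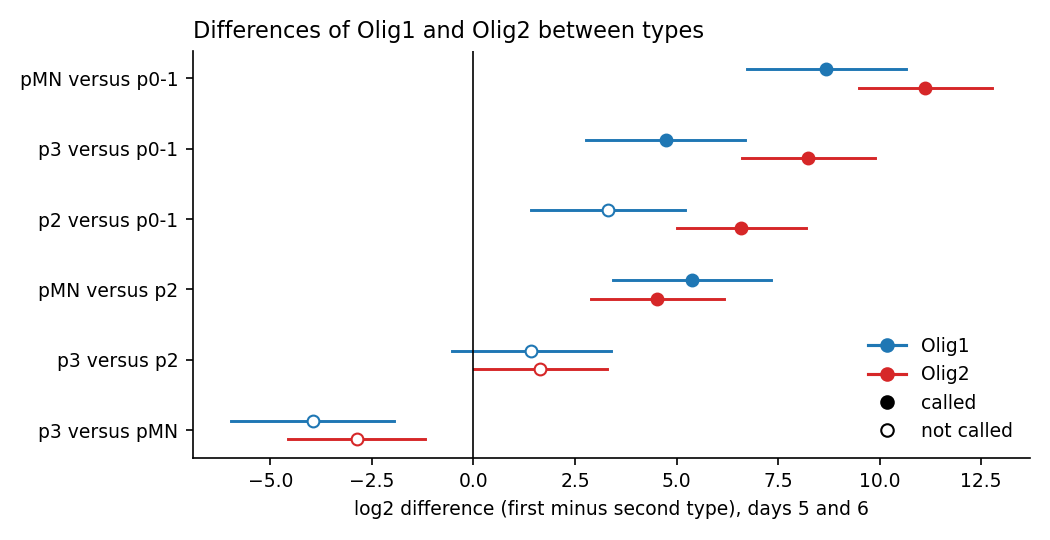
Log2 difference of *Olig1* (blue) and *Olig2* (red) between cell types over days 5 and 6, from limma, with its 95% interval as a line. Filled circles are called and open circles are not. The differences from p0-1 are all above 0 and those of p3 from pMN are below 0.

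Both members were also called higher in pMN than in p2, where 0.107% of genes were called, with log2 differences of 5.38 for *Olig1* (SE 0.97) and 4.52 for *Olig2* (SE 0.81, limma adjusted p 0.00203 for each). This difference mixed the domain with the SAG concentration, because p2 was sorted from 10 and 100 nM and pMN from 100 and 500 nM. At the shared 100 nM the differences fell to 2.39 for *Olig1* and 2.40 for *Olig2*, and neither was called (limma adjusted p 0.714 and 0.626). On the linear scale at 100 nM, mean *Olig2* was 7.63-fold higher in pMN than in p2 on day 5 (2415 ± 910 against 317 ± 213, n = 3 each) and 3.24-fold higher on day 6 (3894 ± 788 against 1202 ± 376, n = 3 each). The *Olig2* values of pMN and p2 overlapped on neither day, and an exact permutation test within days, added after the values were seen, gave p = 0.005 (adjusted p 0.0833 over 25 such tests). *Olig1* overlapped on both days at this concentration (exact permutation p = 0.075, adjusted p 0.171). The *Olig1* call was also lost under edgeR (5.17, adjusted p 0.0822), and both pMN versus p2 calls were lost without the pMN library of 500 nM day 6 replicate 3 (limma adjusted p 0.0127 for both).

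Between p3 and pMN neither member was called, with 0.695% of genes called. *Olig1* was lower in p3 by a log2 difference of -3.95 (SE 1.00, limma adjusted p 0.0245) and *Olig2* by -2.88 (SE 0.84, adjusted p 0.069). All 11 p3 libraries stood below the pMN median for both genes. With a pseudocount of 10 in place of 1, which damps differences near 0, both were called (-2.84, adjusted p 0.00272, and -2.59, adjusted p 0.00297). In linear means *Olig2* was 3.36-fold to 6.47-fold higher in pMN than in p3 at each shared concentration on days 5 and 6. None of the 4 pairs of groups overlapped, with only 2 or 3 libraries per group. *Nkx2-2*, the p3 sorting gene, was called 5.67 higher in p3 in the same comparison (limma adjusted p 1.53e-07), though not by edgeR (5.34, adjusted p 0.0386).

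The members did not separate p3 from p2, where 1.27% of genes were called. The differences were 1.43 for *Olig1* (95% interval -0.53 to 3.38) and 1.65 for *Olig2* (0.01 to 3.29), with limma adjusted p of 0.485 and 0.279. At the shared 100 nM both turned to the other sign, -2.40 for *Olig1* and -0.85 for *Olig2* (limma adjusted p 0.334 and 0.745). Against p0-1 both members were called higher in p3 (4.74 for *Olig1*, limma adjusted p 0.0013, and 8.25 for *Olig2*, adjusted p 2.16e-10), with 1.43% of genes called. Those types shared no SAG concentration. *Olig1* lost this call without the p3 library of 500 nM day 6 replicate 1 (4.15, adjusted p 0.0146). In p2 against p0-1, with 0.322% called, *Olig2* was called (6.60, SE 0.79, limma adjusted p 1.38e-07) and *Olig1* was not (3.31, adjusted p 0.114). The *Olig2* call was lost at the shared 10 nM (4.23, limma adjusted p 0.214).

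Day 4 was the earliest time at which the types were sorted, 1 day after RA and SAG were given. *Olig2* was already called higher in pMN than in p0-1 (log2 difference 9.98, SE 1.31, limma adjusted p 3.07e-06), against 0.1% of genes, and higher than in NMP (9.62, SE 1.48, adjusted p 5.97e-06), against 2.53%. In each of these it did not overlap with the other type, and pMN shared no SAG concentration with either. The call against p0-1 was lost when the compared libraries alone were fitted (limma adjusted p 0.0331). *Olig1* stood at 5.82 in both and was called in neither (limma adjusted p 0.114 and 0.0438). Without the pMN library at 0 it was called against NMP (7.86, limma adjusted p 0.00524). In p3 against pMN, with 4.7% of genes called, the differences were -4.38 for *Olig1* and -3.13 for *Olig2* (limma adjusted p 0.138 and 0.242). In p2 against p0-1, with 0.0286% called, *Olig2* was at 136 ± 73.2 (n = 3) against 0 in 5 libraries and was not called (6.61, limma adjusted p 0.132).

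The next question was whether levels went on changing with time within a domain. No day comparison of either member was called by limma. Linear means pooled over SAG concentrations, in unequal numbers of libraries, were higher on each later day in pMN, p3 and p2. Within a concentration the means rose too, apart from these exceptions. *Olig1* in p3 at 500 nM went from 171.5 on day 5 to 97.7 on day 6. In p2 at 10 nM, from day 4 to day 5, *Olig2* went from 52.6 (1 library) to 50.7 and *Olig1* stayed at 0. In pMN mean *Olig2* was 1128 ± 555 on day 4 (n = 4), 2829 ± 989 on day 5 (n = 6) and 4468 ± 1149 on day 6 (n = 5), with log2 differences of 1.404 (limma adjusted p 0.759, 0.695% of genes called) and 0.75 (adjusted p 0.984, 0.0286% called). Mean *Olig1* was 167 ± 123, 378 ± 290 and 697 ± 342 on the same days (limma adjusted p 0.634 and 0.945). Exact permutation tests within SAG concentration, added after the values were seen, gave p = 0.03 for *Olig2* from day 4 to day 5 and p = 0.02 from day 5 to day 6 (adjusted p 0.107 and 0.0833). Pan-neuronal markers moved with day as well, from 696 to 1277 summed normalised reads in pMN on day 4 to 1911 to 6105 on day 6, and their part in these values was not tested.

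In p3 mean *Olig2* was 174 ± 167 on day 4 (n = 4), 689 ± 207 on day 5 (n = 6) and 984 ± 696 on day 6 (n = 5). No day 5 library overlapped with a day 4 library, with a log2 difference of 2.52 (limma adjusted p 0.282, 6.41% of genes called) and an exact permutation p of 0.0125, the smallest this design allows (adjusted p 0.0833). From day 5 to day 6, with 0.0215% of genes called, the log2 difference of *Olig2* was -0.99, and 0.79 without the library with no read (limma adjusted p 0.85 and 0.88). *Olig1* differed by 1.57 (limma adjusted p 0.772). In p2 mean *Olig2* was 136 ± 73.2 on day 4 (n = 3), 184 ± 204 on day 5 and 662 ± 638 on day 6 (n = 6 each). Pan-neuronal markers went with day here too, from medians of 1015 on day 4 to 4029 on day 6 in p3 and from 718 to 3957 in p2, as did floor plate markers in p3 (1612 to 4596), and their part was not tested. The day 5 against day 4 comparison called 0.193% of genes and the day 6 against day 5 comparison 0.15%, and *Olig2* stood at -0.68 and 2.61 in them (limma adjusted p 1 and 0.343). The change from day 4 to day 5 was not shown to differ between pMN and p3 (interaction -0.34 for *Olig1* and -1.12 for *Olig2*, limma adjusted p 0.984 and 0.9, 2.65% called). The same held from day 5 to day 6 (-0.18 and 1.74, limma adjusted p 1 for both), where 0% of genes were called, 635 had an unadjusted p below 0.05, edgeR called 0 and DESeq2 called 545.

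The last planned question was whether cells of 1 domain differed by the SAG concentration they came from. The widest difference was in p2. Mean *Olig2* was 760 ± 557 normalised reads at 100 nM and 86.6 ± 64.98 at 10 nM over days 5 and 6 (n = 6 each), and mean *Olig1* 129 ± 130 against 11.8 ± 28.9. The log2 differences were 3.79 for *Olig2* (95% interval 1.54 to 6.03, unadjusted p 0.00141, limma adjusted p 0.24) and 4.57 for *Olig1* (1.89 to 7.25, unadjusted p 0.00127, limma adjusted p 0.23). Only 0.0358% of genes were called here, among them *Dbx1*, a gene of the more dorsal p0 domain, which was lower at 100 nM (-5.95, SE 0.90, limma adjusted p 0.000246). The *Dbx1* call was lost with quantile normalisation (adjusted p 0.0221) and in a limma fit of the compared libraries alone (0.252). The added exact permutation tests gave p = 0.01 for *Olig2* and p = 0.02 for *Olig1* (adjusted p 0.0833 for both).

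In pMN no difference between the concentrations was called. *Olig2* was at 4078 ± 1498 from 500 nM (n = 5) and 3154 ± 1112 from 100 nM (n = 6), a log2 difference of 0.45 (95% interval -1.93 to 2.84), and *Olig1* at 700 ± 338 and 376 ± 290, a difference of 1.42 (-1.43 to 4.26, limma adjusted p 1 for both). The added exact permutation tests gave p = 0.115 for *Olig2* and p = 0.055 for *Olig1* (adjusted p 0.221 and 0.138). Here 0% of genes were called by limma, 657 had an unadjusted p below 0.05, edgeR called 0 and DESeq2 442. In p3 mean *Olig1* was 142 ± 90.8 from 500 nM and 144 ± 222 from 100 nM, equal within the spread on the linear scale, while the log2 difference was 3.08, with 3 of the 6 libraries of 100 nM at 0 (limma adjusted p 0.387, 0.0286% called). *Olig2* in p3 differed by 1.22 (95% interval -1.16 to 3.599), and by -0.56 without the library with no read. The p3 *Olig1* difference was positive on day 5 and negative on day 6, and the interaction, added after the values were seen, was -7.42 (SE 2.83, unadjusted p 0.0116, limma adjusted p 0.706, with 0.00716% of genes called). For *Olig2* the same interaction was 2.66 (limma adjusted p 0.958), and -0.90 without the p3 library with no read.

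*Olig1* and *Olig2* were then compared with each other within libraries. Of the 45 p2, pMN and p3 libraries 43 held *Olig2*, and it was higher than *Olig1* in each of these 43. All 31 libraries with *Olig1* also held *Olig2*, at no less than 87.1 normalised reads. *Olig1* was read in 0 of 19 libraries without *Olig2*, in 1 of 6 with up to 100 normalised reads of *Olig2*, in 3 of 10 between 100 and 300, in 8 of 11 between 300 and 1000, and in all 19 above 1000.

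**Figure D3:**
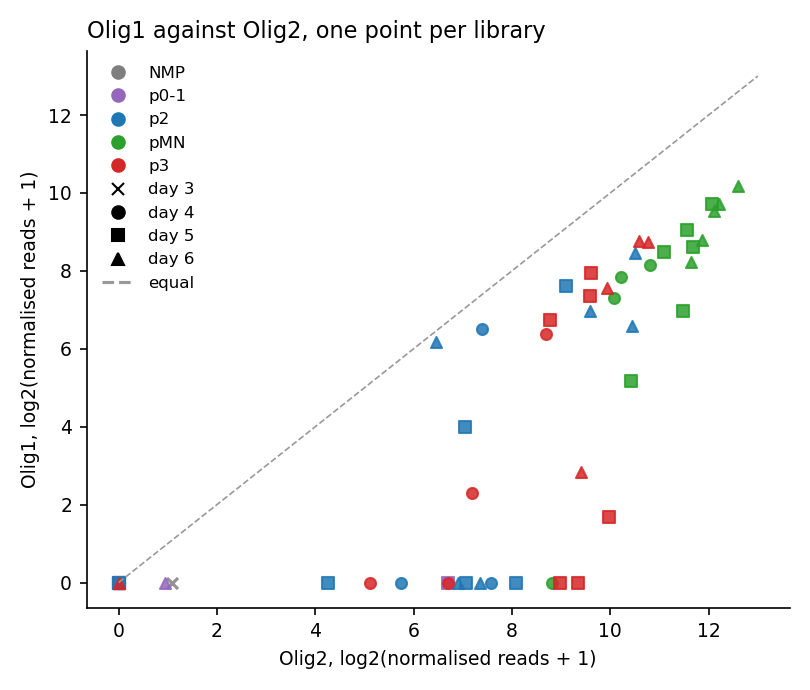
*Olig1* against *Olig2*, both as log2(normalised reads + 1), with 1 point per library, colour for cell type and shape for day, and a dashed line of equal levels. All libraries lie on or below the line, and *Olig1* is read in all 19 libraries with over 1000 normalised reads of *Olig2*.

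Per kilobase of exon *Olig1* stood at a median of 18.3% of *Olig2* in pMN (range 2.9% to 22.2%, 11 libraries of days 5 and 6), 22.8% in p3 (0% to 35.5%, 10 libraries with *Olig2*) and 7.64% in p2 (0% to 91.3%, 11 libraries). The mean log2 ratio of *Olig1* to *Olig2* did not pass the test in any of 3 planned comparisons. It was -3.38 ± 1.20 in pMN on day 5 (n = 6) against -4.15 ± 3.11 on day 4 (n = 4, exact permutation p = 0.638, adjusted p 0.638) and -2.80 ± 0.44 on day 6 (n = 5, exact permutation p = 0.398, adjusted p 0.597). Over days 5 and 6 it was -4.12 ± 3.44 in p3 and -3.12 ± 0.94 in pMN (n = 11 each, permutation p = 0.365, adjusted p 0.597). The p3 library with no read of either gene entered as a log2 ratio of 0, and without it the difference went from -0.998 to -1.41 (permutation p = 0.193). In libraries with reads of both genes it was -0.25.

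Over libraries of 1 type on days 5 and 6 the levels went together. In pMN Pearson's r of the log2 values was 0.90 and Spearman's rho 0.88 (n = 11, permutation p = 0.00046 and 0.00068, adjusted over 3 types 0.00138 and 0.00204), and r was 0.69 without the 2 libraries farthest from the *Olig2* median. In p3 r was 0.50 and rho 0.75 (n = 11, permutation p = 0.0158 and 0.0103, adjusted 0.0158 and 0.0154), and r was 0.42 without 2 libraries, one of them the library at 0 for both genes. In p2 r was 0.64 and rho 0.69 (n = 12, permutation p = 0.0135 and 0.0166, adjusted 0.0158 and 0.0166). Centred on group means, r stayed at 0.85 in pMN and 0.92 in p3 and was 0.03 in p2 (permutation p = 0.911), so the p2 relation lay between its groups of SAG and day rather than within them. The genes of a library share its depth and RNA quality, whose part in these correlations was not tested. The deviations in pMN also went with the replicate number, with replicate 3 above its group mean in 6 of 6 groups and replicate 2 in 0 of 5 for both genes, which the permutations did not take into account.

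The genes whose 25 group means were most like those of each member are given as a description. For *Olig2* they were *Rab34*, a small GTPase gene required for primary cilia (Pearson's r 0.90), the sorting gene *Nkx6-1* (0.87), the Shh receptor and target gene *Ptch1* (0.85), *Olig1* (0.84) and *Grrp1* (0.83). For *Olig1* they were *Mobp*, a myelin protein gene (0.90), *Efcc1* (0.85), *Olig2* (0.84), *Ttyh2* (0.83) and *Gsg1l* (0.78). By Spearman's rho 3 of the 5 genes of *Olig2* stayed, with *Gli1* and *Mobp* in place of *Nkx6-1* and *Ptch1*. With a pseudocount of 10, 4 stayed and *Efcc1* replaced *Ptch1*. Of the 5 genes of *Olig1* 4 stayed in each of these settings. *Mobp* had a mean of 114 ± 78.5 normalised reads in pMN (n = 11), 54.2 ± 86.9 in p3 (n = 11), 34.3 ± 112 in p2 (n = 12) and 0 in p0-1. *Rab34* was present in every library, at 4024 ± 425 in pMN against 1501 ± 683 in p0-1, so its likeness came with a far smaller range than that of *Olig2*.

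*Olig3* was read in 7 of 65 libraries. It had 6.39 normalised reads in p0-1 of 0 nM SAG on day 4 (replicate 3), 82.2 on day 5 (replicate 3), and 40.6 and 23.3 on day 6 (replicates 1 and 3). Outside p0-1 it had 178 in p3 of 100 nM on day 5 (replicate 1), 6.39 in pMN of 500 nM on day 4 (replicate 3) and 1.83 in p2 of 100 nM on day 4 (replicate 2). It was thus present in 4 of 8 p0-1 libraries grown without SAG and in 0 of 9 grown with 10 nM. On days 5 and 6 the log2 difference between 10 and 0 nM was -2.73, from 3 libraries with reads (exact permutation p = 0.2, adjusted p 0.312). Between types it did not pass a permutation test in any of 6 pairs on days 5 and 6 (adjusted p 0.729 to 1), the largest differences being -1.36 in pMN and in p2 against p0-1.

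*Pax3*, a dorsal neural tube gene, had the pattern most like that of *Olig3* over the group means (Pearson's r 0.74), followed by *Ntrk2* (0.63), *Prdm16* (0.63), *Prdm13* (0.62) and *Sh2d5* (0.59). By Spearman's rho *Ntrk2* was the 1 gene of these 5 that stayed among the 5 most alike. *Pax3* was read in all 8 p0-1 libraries of 0 nM SAG, at 35.6 to 762 normalised reads, in 1 of 9 of 10 nM and in 2 of the 48 others. It was called lower at 10 nM than at 0 nM on days 5 and 6, from 335 ± 228 to 0 (n = 6 each, log2 difference -8.14, limma adjusted p 3.02e-10), 1 of the 2 genes (0.0143%) called there, but not by edgeR (adjusted p 0.331) or DESeq2 (0.829). Of the 19 dorsal genes on the list 8 were tested and *Pax3* was the single one called. In the p3 library with 178 normalised reads of *Olig3* neither *Pax3* nor *Pax7* was read.

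**Figure D4:**
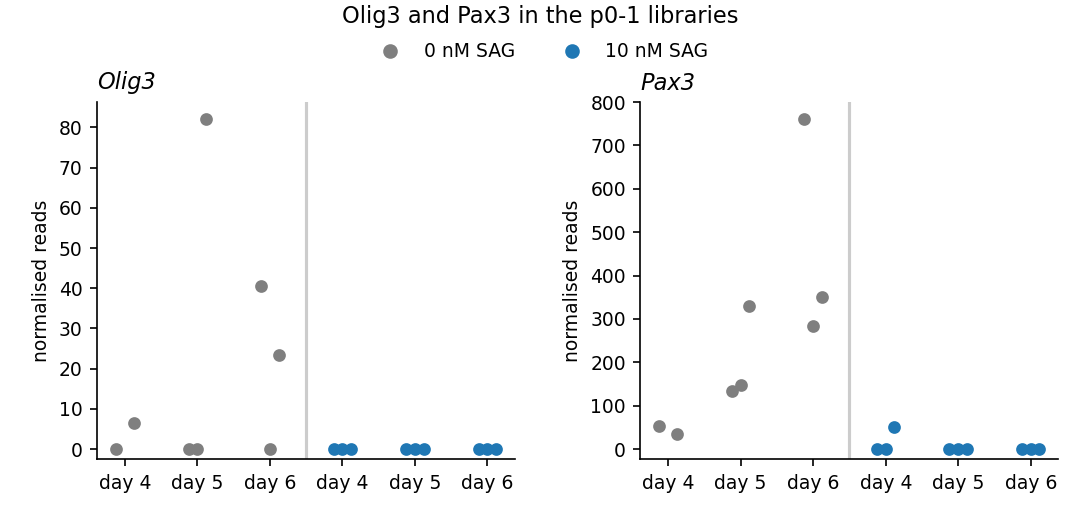
Normalised reads of *Olig3* (left) and *Pax3* (right) in the 17 p0-1 libraries by day, with libraries of 0 nM SAG in grey and of 10 nM in blue. *Olig3* is above 0 in 4 of the 8 grey libraries, *Pax3* in all 8, and *Olig3* in none of the 9 blue ones.

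The genes around the family in its network gave the setting. Among 9 motor neuron genes, all tested, 6 were called higher in pMN than in p0-1 and 4 higher than in p2, and 3 were called lower in p3 than in pMN. The shares of all genes called in these comparisons were 0.96%, 0.107% and 0.695%. *Isl1* and *Lhx3*, homeobox genes of motor neuron identity, had log2 differences of 7.22 and 4.93 against p2 (limma adjusted p 1.75e-07 and 0.00179) and -4.07 and -6.55 in p3 against pMN (adjusted p 0.00346 and 3.33e-06). *Chat*, the gene of the enzyme that makes acetylcholine, had 4.27 and -4.17 (limma adjusted p 3.65e-05 and 2.55e-05). At the shared 100 nM the *Lhx3* call against p2 was lost (3.55, adjusted p 0.444). Both homeobox genes were also called higher in pMN on day 5 than on day 4 (8.43 and 7.73, limma adjusted p 2.39e-05 and 0.000244), calls that were lost with the compared libraries alone (limma adjusted p 0.0127 and 0.0174) and under edgeR (0.0249 and 0.107). Of the 4 calls against p2 that of *Isl1* alone held under edgeR, the 3 calls between p3 and pMN were lost under it (adjusted p 0.0983 to 0.144), and of the 6 against p0-1 those of *Lhx4* (0.06) and *Mnx1* (0.0149) were. The median log2 difference of the list was 4.11 against p2, where the median of all genes tested was 0.09.

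Among 12 bHLH relatives and proneural genes 8 were tested. *Neurog2*, a proneural gene known for its role in motor neuron formation, was called higher in pMN than in p0-1 (4.14, limma adjusted p 2.17e-05) and lower in p3 than in pMN (-4.30, adjusted p 3.22e-05). *Neurod1* and the Notch effector *Hes5* were the other 2 called lower in p3 than in pMN (-3.47, lost under edgeR with adjusted p 0.0259, and -1.31). None of the 8 was called in pMN against p2, where 0.107% of all genes were called. Of the 7 bHLH dimer partners and inhibitors, *Id3* was the single gene called: it was lower in pMN than in p0-1 (-1.17, limma adjusted p 0.000727) and higher in p3 than in pMN (1.27, adjusted p 0.000562). The list's median differences stayed between -0.22 and -0.06 in the 3 comparisons of pMN with other types.

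Among the 9 domain repressors around *Olig2*, 5 were called between pMN and p0-1: *Nkx2-9*, *Nkx6-1* and *Nkx6-2* were higher in pMN (7.94, 7.45 and 3.67) and *Dbx1* and *Irx3* lower (-9.81 and -1.71). The *Nkx6-2* call was lost under edgeR (adjusted p 0.0122), as was that of *Hhip* among the Shh targets (0.0685). That of *Nkx6-2* was also lost in 17 of 23 fits with 1 library left out. It was lost as well without the filter on low values (limma adjusted p 0.0146) and with the compared libraries alone (0.0484). *Nkx2-9* was the single one called against p2 (5.71, limma adjusted p 7.23e-07, but 2.39 with adjusted p 0.572 at the shared 100 nM). *Nkx2-2* and *Pax6* were called between p3 and pMN, *Pax6* at -3.39. NKX6.1, PAX6 and NKX2.2 were sorting proteins, so the calls of *Nkx6-1*, *Pax6* and *Nkx2-2* were not independent of the gates. The Shh target genes *Gli1*, *Hhip* and *Ptch1* were called higher in pMN than in p0-1, by 4.86, 4.37 and 2.39, and none of these 3 was called against p2 or between p3 and pMN. Of 13 oligodendrocyte lineage genes 9 were tested and 0 were called in these 3 comparisons. The shares of all genes called were 0.96% in pMN against p0-1, 0.107% in pMN against p2 and 0.695% in p3 against pMN. The 0 of 9 is near these shares and is no result about the list. The 2 V3 interneuron genes were below the filter.

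The nearest genes on the chromosome are given for context, as means over days 5 and 6. *Ifnar2*, an interferon receptor gene that starts 100844 bases after *Olig1*, had means of 483 ± 192 normalised reads in pMN, 452 ± 192 in p2, 418 ± 271 in p3 and 306 ± 199 in p0-1. *Paxbp1*, 181 kb before *Olig2*, was at 4420 ± 1310 in pMN and 4080 ± 747 in p0-1. *4932438H23Rik*, 156 kb before *Olig2*, was at 13.4 ± 30 in pMN, 35.9 ± 39.4 in p3 and 0 in p0-1. Around *Olig3*, *Tnfaip3* (341 kb before) was read in 24 libraries and *Ifngr1* (233 kb after) in 58, against the 7 of *Olig3*.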

How the data were processed

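Poly(A) RNA of fixed, sorted cells was sequenced in 65 libraries (SMART-Seq HT, Nextera XT, no strand marks, no molecular identifiers). The deposited values are a signal made by the authors from gene reads: reads were assigned to mm10 genes with featureCounts (per the submitters' processing notes), marked duplicates were ignored, and counts were divided by 1 size factor per library. Libraries that failed the authors' quality criteria were left out before deposit. Whole reads were recovered for 100.0% of 834400 values above 0 (tolerance 0.001) and used in edgeR 4.0.16 and DESeq2 1.42.0 as alternatives. The main test was limma 3.58.1 (R 4.3.3) on log2(value + 1) with 25 group means, an intensity trend and 13964 genes with a mean of at least 10. Type comparisons averaged the groups of days 5 and 6 with equal weight. *Olig3*, ratios and correlations used permutation tests (Python 3.11.15, scipy 1.17.1; 100000 resamples unless exact). Tests at the same SAG concentration, 25 exact tests within day or SAG, and the p3 interaction were chosen after the values were seen. The 3 members and all gene lists were chosen with earlier results of these data known. Named genes were the members, the called genes of the lists and the 5 genes most alike by Pearson's r over group means. Alternatives covered pseudocount, filter, scaling, weights, covariates, left-out libraries and the count tools, and the scripts were tested on simulated data. An item of the gene lists is not reported here.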

Additional observations from a re-analysis of the deposited data

Results flagged for a closer look

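Within a cell type and day, 8 of 23 sets of 4 to 6 libraries held a library whose gap to the next passed Dixon's 95% critical value. Chance passes about 1 in 20 sets, but the count cannot be read against that, because in 6 of the 8 all other libraries were at 0 and any library with a read passes. For *Olig1* this was pMN of 100 nM SAG on day 4 (replicate 2), at 0 normalised reads on the low side. For *Olig2* it was p3 of 100 nM on day 6 (replicate 2), at 0, p0-1 of 10 nM on day 5 (replicate 3), at 102.6, and p0-1 of 0 nM on day 6 (replicate 2), at 0.919, with all other p0-1 libraries of those days at 0. For *Olig3* the libraries were p0-1 of 0 nM on day 4 (replicate 3) at 6.392, p0-1 of 0 nM on day 5 (replicate 3) at 82.23, pMN of 500 nM on day 4 (replicate 3) at 6.386, and p3 of 100 nM on day 5 (replicate 1) at 178.3, each in a set otherwise at 0. The sets of *Olig2* in p0-1 and of *Olig3* are therefore single libraries with reads among libraries without. What sets these libraries apart was not tested.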

How the results depend on the processing

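Of 245 alternative values of the 7 calls of *Olig1* and *Olig2* between types on days 5 and 6, 235 kept direction and call, 10 lost the call and 0 reversed. Most of these values came from leaving out 1 library, which changes a fit little. Each call that could be refitted at a shared SAG concentration lost the call there. These were *Olig1* and *Olig2* in pMN versus p2 and *Olig2* in p2 versus p0-1. The calls of pMN and p3 against p0-1 had no shared concentration to be refitted at. At the same SAG concentration pMN versus p2 gave 2.386 for *Olig1* and 2.404 for *Olig2*, p3 versus p2 -2.4 and -0.853, and p2 versus p0-1 4.226 for *Olig2*. EdgeR gave 5.171 for *Olig1* in pMN versus p2, and DESeq2 6.471 in p2 versus p0-1, now called. A pseudocount of 10 gave called differences of -2.837 and -2.587 in p3 versus pMN. On day 4 DESeq2 called *Olig1* in pMN versus p0-1 (9.804) and versus NMP (9.698, and 5.824 with array weights), and *Olig2* in p2 versus p0-1 (23.19, an unbounded estimate with p0-1 at 0, and 6.613 with array weights), while *Olig2* in pMN versus p0-1 (9.978) lost its call with the compared libraries alone. Differences that were never called changed sign for *Olig2* in p3 from day 5 to day 6 (0.02219 with array weights, 0.4354 with edgeR, 0.4616 with DESeq2), in p2 from day 4 to day 5 (0.3704, 0.3883 with the count tools), and in p3 by SAG (-0.2441, -0.2635) and its interaction with day (-0.2772, -0.2829). The *Olig1* interactions of pMN and p3 gave 0.456 (quantile) and 0.08634 (genes detected) for day 4 to 5, and 0.3511 (pseudocount of 10) and 0.5576 (quantile) for day 5 to 6. The pMN ratio from day 4 to day 5 gave -0.008851 with a pseudocount of 10 and -0.7816 in libraries with both genes, the p3 versus pMN ratio -0.1476 and -0.2523 against -0.9983, and the centred p2 correlation was 0.03376. The causes were not tested.

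Leaving out 1 library at a time gave 4.897 to 5.893 for *Olig1* and 4.051 to 4.936 for *Olig2* in pMN versus p2, 4.145 to 5.466 for *Olig1* in p3 versus p0-1, and 3.787 to 7.862 in pMN versus NMP. It gave -1.898 to 0.7938 for *Olig2* in p3 from day 5 to 6, -1.322 to 1.93 for *Olig1* and -1.508 to 0.2603 for *Olig2* in p2 from day 4 to 5, -0.5606 to 2.131 for *Olig2* in p3 by SAG and -0.8998 to 4.483 for its interaction. The pMN and p3 interactions ran from -2.375 to 1.7 and -1.638 to 1.005 for *Olig1* and from -0.04182 to 2.65 for *Olig2* (day 5 to 6), and the pMN ratio from -0.7816 to 1.363. Where a group kept 1 library it was assumed to vary like the others.

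The replicate block changed 0 of 44 calls of the members. Numbers were not taken to pair libraries, as the sources used here do not say what they mark. Same-numbered libraries correlated at -0.0426 to 0.107 (median 0.0334), and 3 of 186 pairs passed 0.1. The median for other-numbered pairs was -0.0189, and 50 of 60 libraries correlated best with their own number. Whether a number marks a shared batch was not tested. The added permutation tests took no account of the number, and not every group held the same numbers. Genes called in pMN versus p2 numbered 15, and 26 with the replicate block, 9 to 29 over the limma settings, 5 with edgeR and 587 with DESeq2. For pMN versus p0-1 edgeR and DESeq2 called 99 and 748 against 134, for p3 versus pMN 51 and 784 against 97, for p3 versus p2 122 and 985 against 178, for p3 versus p0-1 130 and 888 against 199, and for p2 versus p0-1 23 and 633 against 45. *Olig3* values rest on 2 to 216 reads in the 7 libraries that had any.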
